A study of Mus musculus with 8 samples.

Results

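The genes described here encode enzymes that carry methyl groups from choline through betaine to methionine, and that turn homocysteine into cysteine. The set holds 10 genes: Chdh, Aldh7a1, Bhmt, Bhmt2, Dmgdh and Sardh of choline and betaine breakdown, Mat2a and Mtr of the methionine cycle, and Cbs and Cth of transsulfuration. They were chosen by symbol from the deposited gene table, with results of the diet comparison in these same libraries already known. Their diet differences are therefore given as a description. Whether a gene passed the threshold in the fit over all genes is stated, but no p is given for it and nothing is supported by it. The 10 genes belong to 23504 gene symbols in the table, and all 10 passed the filter on low counts, as did 14711 genes in all.

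RNA came from the manually dissected outer cortex of kidneys of wild-type C57Bl6/J mice. There were 4 libraries from mice on the high fat diet and 4 from controls. Both diets began at 6 weeks of age and lasted 9 weeks, which made the mice 15 weeks old. No allele or agent other than the diet is named for either group, and the labels give neither the composition of the diets nor how many mice stand behind a library. Libraries are called by diet and letter (high fat A, B, F and G, control I, J, L and M), and the labels do not tie each one to its own mouse, so p-values cover the spread among these libraries and nothing wider.

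Choline that enters the mitochondria of proximal tubule cells is oxidized to betaine, and betaine is a methyl donor as well as an osmolyte of the kidney. Betaine gives a methyl group to homocysteine, which becomes methionine, and the dimethylglycine that is left loses its remaining methyl groups to folate on the way to sarcosine and glycine. Methionine is activated to S-adenosylmethionine, the donor of most cellular methylation reactions, and the homocysteine that comes back is either methylated again or joined to serine and turned into cysteine.

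Bhmt, Bhmt2 and Dmgdh lie side by side on mouse chromosome 13, and the sequence at the RefSeq start of Bhmt differs from the start region that Bhmt2 and Dmgdh share. In GENCODE M21 (GRCm38), Bhmt spans 93616675 to 93637961 on the minus strand, Bhmt2 spans 93655720 to 93674302 on the minus strand, and Dmgdh spans 93674433 to 93752833 on the plus strand. Bhmt2 and Dmgdh are transcribed away from each other, and their RefSeq starts are 134 bases apart, while the RefSeq start of Bhmt is 36.5 kb from that of Bhmt2. RefSeq promoter windows (GRCm38.p6), from 250 bases before a start to 50 bases after it, were matched for 8 of the 10 genes, all but Cth and Aldh7a1. The windows of Bhmt2 and Dmgdh share 233 bases, 93674253 to 93674485, so the Dmgdh window is shown for both, beside that of Bhmt. Capitals mark matches on either strand to CCAAT (the CCAAT box) in the Bhmt window and to GGGCGG (the GC box) in the Dmgdh window.
Bhmt promoter, chr13:93637709-93638008, minus strand: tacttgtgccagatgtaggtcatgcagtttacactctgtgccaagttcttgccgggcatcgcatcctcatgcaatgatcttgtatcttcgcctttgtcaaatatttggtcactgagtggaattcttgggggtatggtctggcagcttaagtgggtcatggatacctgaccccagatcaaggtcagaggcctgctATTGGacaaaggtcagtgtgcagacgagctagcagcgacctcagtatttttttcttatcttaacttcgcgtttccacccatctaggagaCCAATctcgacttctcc
Dmgdh promoter, chr13:93674186-93674485, plus strand: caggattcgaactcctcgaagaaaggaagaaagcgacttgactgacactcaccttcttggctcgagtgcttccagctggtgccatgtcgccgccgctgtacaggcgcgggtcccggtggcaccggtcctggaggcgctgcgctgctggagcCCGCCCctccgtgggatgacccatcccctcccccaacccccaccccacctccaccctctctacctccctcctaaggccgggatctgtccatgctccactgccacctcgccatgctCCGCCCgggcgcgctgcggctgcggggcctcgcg

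The Bhmt window held CCAAT at -56 and +33 from the RefSeq start and neither a GC box nor TATAAA. That start, 93637758, lies inside the GENCODE span of Bhmt, which starts at 93637961. By GENCODE, both CCAAT matches therefore lie within the gene, and the values of this window hold for the RefSeq start only. The Dmgdh window held GC boxes at -99 and +16, the same bases as the GC boxes of the Bhmt2 window. The GC content was 48.0% for Bhmt, 73.7% for Bhmt2 and 68.0% for Dmgdh, against a median of 52.7% over 32851 RefSeq windows. The Bhmt window held 8 CG dinucleotides, that of Bhmt2 26 and that of Dmgdh 25, where the median window held 7. Of all windows, 37.4% held CCAAT, 35.7% held GGGCGG and 13.6% held TATAAA on either strand, so each match is common. Among the other windows, that of Mat2a was the only one with TATAAA, the windows of Mat2a, Mtr and Cbs held both a CCAAT and a GC box, and that of Sardh held none of the 3 motifs. The RefSeq start of Sardh, 27247303, likewise lies inside its GENCODE span, which starts at 27248337. Chdh has 3 windows, of which the most upstream held GC boxes and the other 2 held none of the motifs.

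Total expected counts ran from 23503593 to 26291029 in the high fat libraries and from 26572175 to 30781585 in the control libraries. In control J, 50.3% of counts belonged to the ribosomal RNA precursor Rn45s, against 4.82% to 13.3% in high fat libraries and 1.23% to 5.7% in the other control libraries. Rn45s was left out before scaling, which left 21793784 to 24534731 counts in high fat libraries, 13993652 in control J and up to 30403685 in the other controls. The tissue carried proximal tubule markers throughout, with 10 of them summing to 32795 to 32883 CPM (counts scaled to a common library total) in high fat libraries and 31448 to 32241 CPM in control libraries. Of 14711 tested genes, 1469 were called, meaning a Benjamini-Hochberg adjusted p under 0.05 in the quasi-likelihood test of edgeR.

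Among the 10 genes, Bhmt and Cth were called lower and Chdh was called higher on the high fat diet, and the other 7 were not called. Over all tested genes, 9.99% were called, 5.13% as lower and 4.86% as higher on the high fat diet. Libraries of the diets did not overlap for 4 of the 10 genes (Bhmt, Cth, Chdh and Dmgdh) and for 17.5% of all tested genes. Because this contrast was known when the genes were chosen, nothing is read from these counts. The fitted log2 fold change (high fat over control) was below 0 for 8 genes and above 0 for Chdh and Sardh, with a median of -0.10 over the 10 genes and -0.00227 over all tested genes. In whole-tissue RNA, fewer cells of a type and less RNA per cell cannot be told apart.

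**Figure D1:**
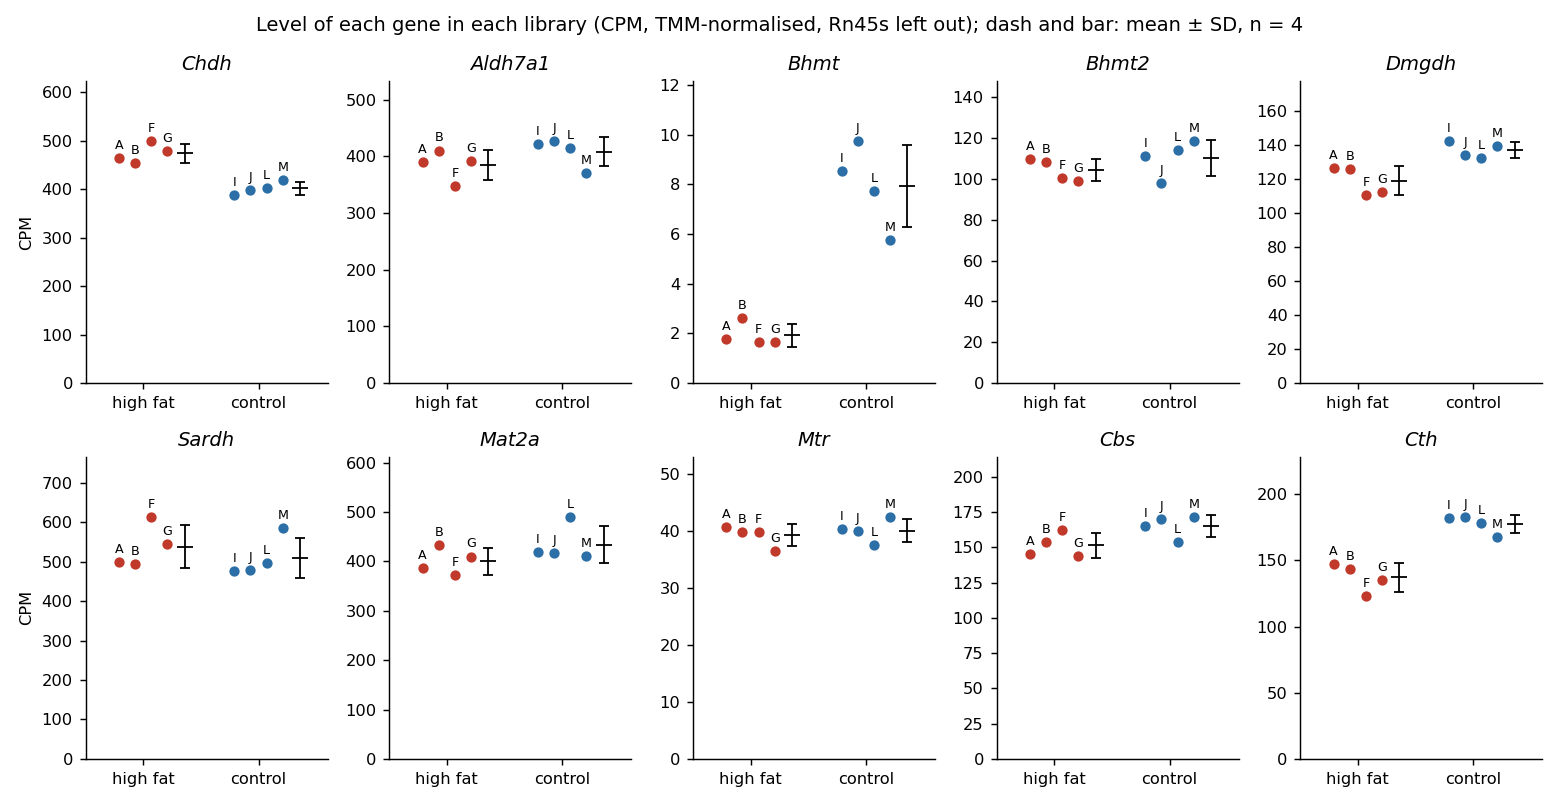
Level of each of the 10 genes in each library, in CPM after leaving out Rn45s (points, lettered by library), with the mean and SD of 4 libraries beside each diet. Bhmt separates widely, at 1.64 to 2.61 CPM on the high fat diet and 5.78 to 9.73 CPM on the control diet. Mtr and Sardh overlap over most of their range, and Bhmt2 overlaps through control J alone.

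Chdh encodes choline dehydrogenase, the mitochondrial enzyme that begins the oxidation of choline to betaine. It had 465.6, 453.8, 498.8 and 479.1 CPM in high fat libraries A, B, F and G, against 387.3, 398.2, 402.5 and 420.1 CPM in control libraries I, J, L and M. Every high fat library lay above every control library. The means were 474.3 ± 19.3 CPM on the high fat diet and 402.0 ± 13.6 CPM on the control diet (SD, n = 4 each), and the log2 fold change was 0.24 ± 0.05 (SE), or 1.18-fold higher. The difference was not called without high fat F (log2 fold change 0.21) or without control I (0.22). Chdh lies on chromosome 14, 30009023 to 30040527 on the plus strand, and overlaps 589 bases of Cacna1d on the other strand, a gene with a mean of 12.2 CPM on the high fat diet and 11.2 CPM on the control diet. Whether counting used strand is not stated, so reads of such overlapping pairs cannot be told apart. Antisense genes also overlap Bhmt (Gm15622, 3252 bases), Dmgdh (AW495222, 12994 bases) and Sardh (Sardhos, 45329 bases).

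Aldh7a1 encodes an aldehyde dehydrogenase that can oxidize betaine aldehyde to betaine and that also acts in lysine breakdown. Its libraries overlapped, at 347.0 to 410.3 CPM on the high fat diet and 370.1 to 426.2 CPM on the control diet, and its log2 fold change was -0.09 ± 0.07 (SE). High fat F and control M were the lowest libraries of their diets for Aldh7a1. Aldh7a1 overlaps Phax on the other strand over 10509 bases on chromosome 18, and Phax averaged 30.8 CPM on both diets.

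Bhmt encodes betaine-homocysteine methyltransferase, which moves a methyl group from betaine to homocysteine and is best known from the liver. It had 1.76, 2.61, 1.64 and 1.67 CPM in high fat libraries A, B, F and G, against 8.52, 9.73, 7.73 and 5.78 CPM in control libraries I, J, L and M. The highest high fat library, B, lay below the lowest control library, M. The means were 1.92 ± 0.463 CPM on the high fat diet and 7.94 ± 1.66 CPM on the control diet (SD, n = 4 each), and the log2 fold change was -2.03 ± 0.19 (SE), or 4.09-fold lower. These levels rested on 39 to 56 expected counts per high fat library and 125 to 219 per control library, the fewest of the 10 genes. Without each library in turn, the log2 fold change lay between -2.21 and -1.94, a spread that says how far single libraries move this value and is no independent support for it. Bhmt ranked 5 by size among 749 called genes that were lower on the high fat diet and had a control mean of at least 1 CPM.

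Liver is the organ where Bhmt is best known, so liver markers were read beside it. The 8 liver markers summed to 19.6 to 42.8 CPM in high fat libraries and 27.3 to 36.8 CPM in control libraries, with p = 0.571 by an exact two-sided permutation test (adjusted p = 0.725 over 15 lists). Tat was at 0 in all libraries, Ahsg and Cps1 were at 0 in all high fat libraries and averaged 0.00978 and 0.00789 CPM in control libraries, and albumin (Alb) averaged 9.03 CPM on the high fat diet and 12.04 CPM on the control diet. None of the 8 was called, of which 4 were tested. Log2 fold changes of the tested markers were -0.41 for Alb, -0.36 for Apoc3, -0.64 for Fgb and 0.15 for Fga. Fga was highest in high fat B, at 26.7 CPM. High fat B was the highest high fat library for these 4 markers and for Bhmt. Whether liver RNA had a part in the Bhmt values was not tested.

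Bhmt2 encodes a related methyltransferase that uses S-methylmethionine rather than betaine. It had 109.6, 108.2, 100.4 and 98.9 CPM in high fat libraries A, B, F and G, against 111.1, 98.0, 114.3 and 118.3 CPM in control libraries I, J, L and M. The libraries overlapped through control J, the lowest of all 8. The log2 fold change was -0.08 ± 0.07 (SE). Per length, in TPM (transcript share corrected for length) computed from the deposited FPKM without Rn45s, Bhmt made up 1.81 ± 0.376% of the summed level of Bhmt and Bhmt2 on the high fat diet and 6.84 ± 1.84% on the control diet (SD, n = 4 each). Bhmt2 differed little between the diets, so this share restates the fall of Bhmt.

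The coding sequences of Bhmt and Bhmt2 are alike in part. In the authors' counting, ambiguous reads are shared by likelihood, so likeness bears on the counts only through reads that can be placed in both genes. The longest open reading frames of their GENCODE M21 transcripts, 1224 and 1092 bases, were identical at 75.3% of 1091 aligned positions. Their longest identical run was 59 bases, at positions 880 to 938 of the Bhmt frame and 853 to 911 of the Bhmt2 frame. The run is shown with 20 bases on each side, in capitals where the genes are identical and in lower case at the 4 positions where they differ.
Bhmt: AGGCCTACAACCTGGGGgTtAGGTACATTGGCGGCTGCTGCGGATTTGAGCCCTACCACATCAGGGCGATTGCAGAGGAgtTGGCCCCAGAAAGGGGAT
Bhmt2: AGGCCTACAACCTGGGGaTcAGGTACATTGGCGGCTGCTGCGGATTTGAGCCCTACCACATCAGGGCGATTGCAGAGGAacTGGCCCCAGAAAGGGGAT

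A read that fell wholly within this run would match both genes, and Bhmt2 had many times more counts than Bhmt. The expected counts of Bhmt were whole numbers in 7 of the 8 libraries, and the value in control M was 182.71. The share of Bhmt counts that came from ambiguous reads was not tested.

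Dmgdh encodes dimethylglycine dehydrogenase, the mitochondrial flavoenzyme that takes a methyl group from dimethylglycine and leaves sarcosine. It had 126.7, 126.1, 111.0 and 112.7 CPM in high fat libraries A, B, F and G, against 142.2, 134.2, 132.8 and 139.5 CPM in control libraries I, J, L and M. Every high fat library lay below every control library, with high fat A and B close to control L. The means were 119.1 ± 8.42 CPM on the high fat diet and 137.2 ± 4.45 CPM on the control diet (SD, n = 4 each), and the log2 fold change was -0.20 ± 0.06 (SE), which lay just outside the threshold for a call. It was called in 1 of 8 fits with a library left out, the one without high fat B, with a log2 fold change of -0.23. It was also called in 3 of 10 other fits (DESeq2, limma-voom and a mean of at least 5 CPM). Its log2 fold change lay between -0.24 and -0.17 in the fits with a library left out. In the others it lay between -0.21 and -0.05, and these refits are no support. Although Dmgdh and Bhmt2 share a start region, the CPM ranges of the diets overlapped for Bhmt2, through control J alone, and not for Dmgdh. The difference between their fold changes was not tested.

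The protein-coding genes on either side of this cluster had fold changes above 0. Jmy, which encodes a regulator of p53 and actin on the far side of Bhmt, averaged 79.9 ± 4.04 CPM on the high fat diet and 61.9 ± 5.12 CPM on the control diet (SD, n = 4 each) and rose by 0.37 ± 0.07 (SE) on the log2 scale (edgeR adjusted p = 0.00959). Arsb, which encodes the lysosomal arylsulfatase B beyond Dmgdh, had a log2 fold change of 0.46 ± 0.15 (SE) that did not pass (edgeR adjusted p = 0.074).

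**Figure D2:**
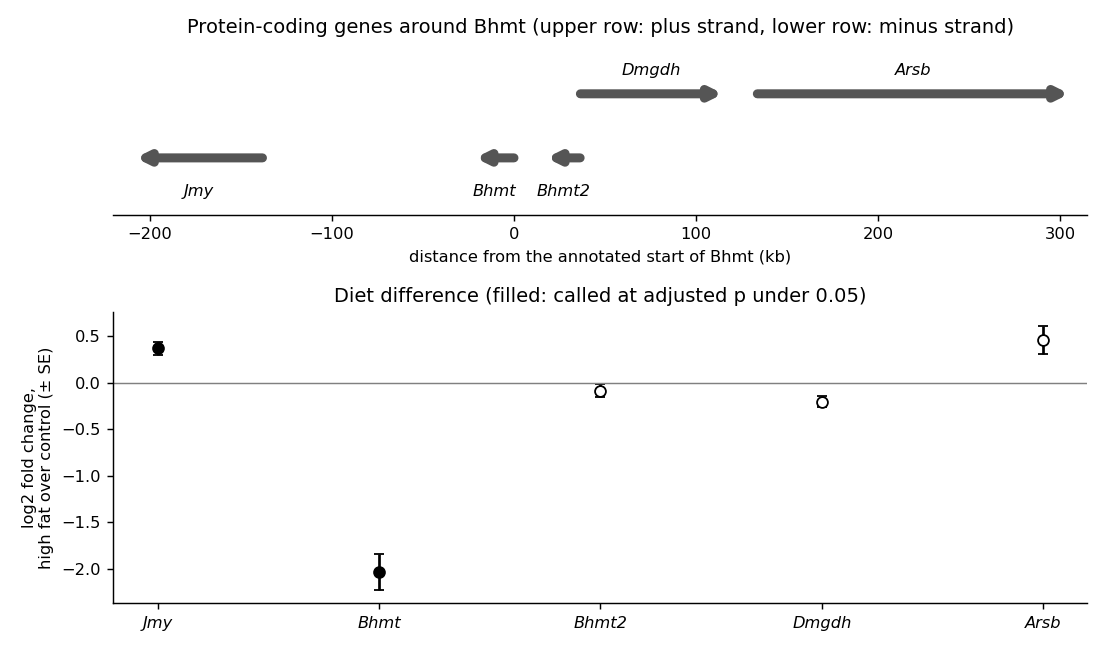
Protein-coding genes around Bhmt by distance from its GENCODE start in kb (upper panel, arrows in the direction of transcription) and the log2 fold change of each, high fat over control, with its SE (lower panel, filled where called). Bhmt stands at -2.03, its neighbours Bhmt2 and Dmgdh between -0.20 and -0.08, and Jmy and Arsb above 0.

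Sardh encodes sarcosine dehydrogenase, the step after Dmgdh that ends in glycine. It had 495.1 to 612.8 CPM in high fat libraries and 477.4 to 585.6 CPM in control libraries, with a log2 fold change of 0.08 ± 0.09 (SE). High fat F and control M were the highest libraries of their diets and the 2 diets overlapped over most of their range. The same libraries, high fat F and control M, were also the highest of their diets for Chdh and the lowest for Bhmt, Aldh7a1, Mat2a and Cth. The ratio of Chdh to Dmgdh, per length in TPM, was 2.10 ± 0.228 on the high fat diet and 1.54 ± 0.0758 on the control diet (SD, n = 4 each), without overlap. Each of these genes was already apart between the diets in CPM, in opposite directions, so the ratio restates those differences.

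Mat2a encodes the catalytic subunit of methionine adenosyltransferase outside the liver, which makes S-adenosylmethionine. It had 372.0 to 432.6 CPM in high fat libraries and 410.5 to 489.5 CPM in control libraries, with a log2 fold change of -0.12 ± 0.07 (SE). The ranges overlapped, and control L stood above the other control libraries. The liver form, Mat1a, had counts in control J alone and was below the filter on low counts.

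Mtr encodes the cobalamin-dependent methionine synthase, which remethylates homocysteine with a methyl group from folate. It had 36.4 to 40.8 CPM in high fat libraries and 37.5 to 42.4 CPM in control libraries, with a log2 fold change of -0.03 ± 0.06 (SE), the smallest of the 10 in size. Per length, Mtr was 9.65 ± 1.85 times as high as Bhmt on the high fat diet and 2.40 ± 0.654 times as high on the control diet (SD, n = 4 each). The lowest such ratio on the high fat diet, 6.96 in library B, lay above the highest on the control diet, 3.35 in library M. Mtr differed little between the diets, so this ratio restates the fall of Bhmt, which was known when the genes were chosen. The summed level of Mtr and Bhmt, the pair that methylate homocysteine from folate and betaine, was 19.3 ± 0.777 TPM on the high fat diet and 25.3 ± 0.83 TPM on the control diet (SD, n = 4 each). The difference in this sum again restates the fall of Bhmt. Bhmt2, which uses S-methylmethionine, is left out of the sum and averaged 100.9 TPM on the high fat diet and 106.2 TPM on the control diet.

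Cbs encodes cystathionine beta-synthase, which joins homocysteine to serine. It had 145.3, 153.6, 162.6 and 144.2 CPM in high fat libraries A, B, F and G, against 165.5, 170.2, 154.1 and 171.5 CPM in control libraries I, J, L and M. Control L lay among the high fat libraries, and the log2 fold change was -0.13 ± 0.06 (SE).

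Cth encodes cystathionine gamma-lyase, which releases cysteine from cystathionine. It had 147.6, 143.5, 122.9 and 135.3 CPM in high fat libraries A, B, F and G, against 182.3, 182.7, 178.4 and 167.9 CPM in control libraries I, J, L and M. All high fat libraries lay below all control libraries. The means were 137.3 ± 10.8 CPM on the high fat diet and 177.8 ± 6.87 CPM on the control diet (SD, n = 4 each), and the log2 fold change was -0.37 ± 0.06 (SE), or 1.29-fold lower. The difference was not called without control J and high fat G together, when the log2 fold change was -0.35. The ratio of Cth to Cbs in TPM was 1.22 ± 0.147 on the high fat diet and 1.44 ± 0.1 on the control diet (SD, n = 4 each), and the ranges overlapped.

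**Figure D3:**
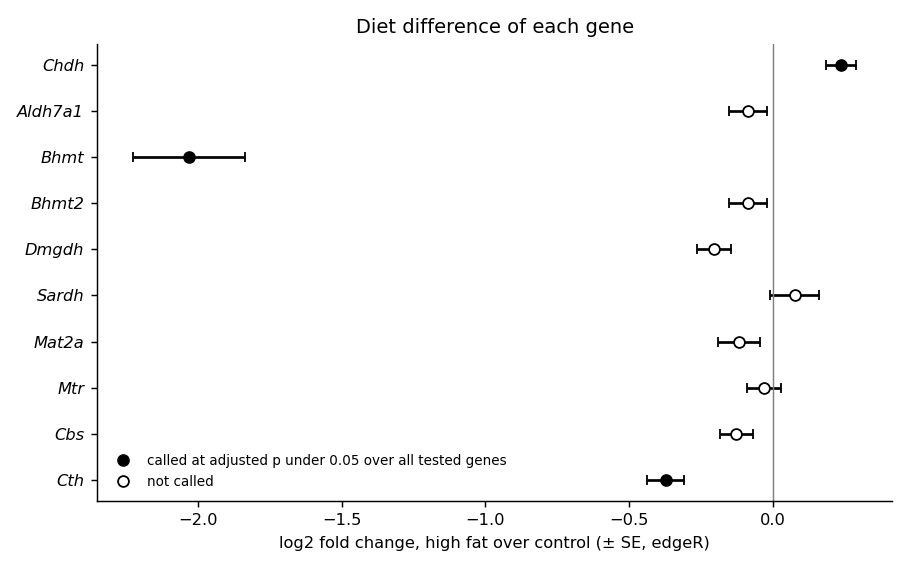
Log2 fold change of each gene, high fat over control, with its SE (edgeR, 4 libraries per diet), in order of choline oxidation, the methionine cycle and transsulfuration. Bhmt at -2.03 is far from the other 9 genes, which lie between -0.37 for Cth and 0.24 for Chdh.

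Compared per length, the set spanned a wide range of levels. In control libraries the order of mean TPM was Mat2a (307.9), Aldh7a1 (276.6), Sardh (221.7), Cth (198.5), Chdh (141.3), Cbs (138.4), Bhmt2 (106.2), Dmgdh (91.6), Mtr (17.7) and Bhmt (7.62). Neighbours in this order were often closer than their spread: the control ranges overlapped between Mat2a and Aldh7a1, between Aldh7a1 and Sardh, between Sardh and Cth, between Chdh and Cbs, and between Bhmt2 and Dmgdh. Mtr, at 16.4 to 19.8 TPM, lay below all values of Dmgdh, and Bhmt, at 5.91 to 8.74 TPM, lay below all values of Mtr. On the high fat diet the means were 286.4 TPM for Mat2a, 263.4 for Aldh7a1, 236.0 for Sardh, 167.9 for Chdh, 154.8 for Cth, 128.1 for Cbs, 100.9 for Bhmt2, 80.2 for Dmgdh, 17.5 for Mtr and 1.86 for Bhmt. Cth and Chdh changed places between the diets, and the ranges of these genes overlapped on the high fat diet.

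**Figure D4:**
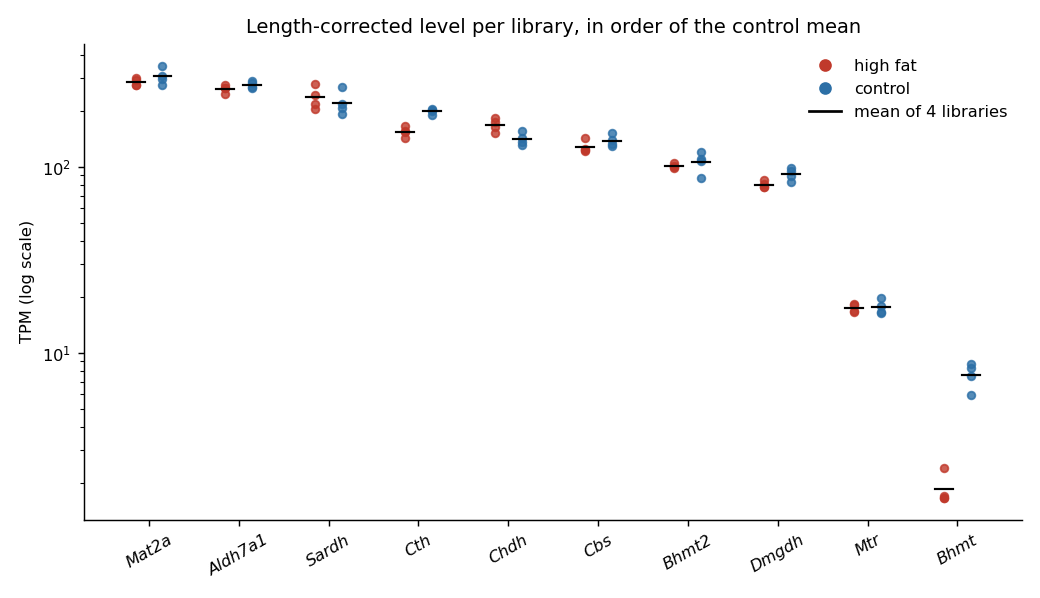
Length-corrected level of each gene per library in TPM (log scale, computed from the deposited FPKM without Rn45s), with high fat libraries left of control libraries and the mean of 4 libraries as a line. Mat2a is highest at 286.4 TPM on the high fat diet and 307.9 TPM on the control diet, and Bhmt is lowest at 1.86 and 7.62 TPM on those diets.

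The genes whose pattern over the 8 libraries was nearest to that of Bhmt were looked for among the 13429 tested genes that averaged 1 CPM or more. Likeness was the root mean square difference in log2 CPM, centred on each gene's mean. The nearest were the predicted gene Gm10639 (0.23), the cytochrome P450 gene Cyp2a5 (0.24), the glutathione transferase gene Gsta2 (0.26), the organic anion transporter family gene Slc22a29 (0.29) and the stearoyl-CoA desaturase gene Scd1 (0.34). Cyp2a5 had 68.7 to 120.2 CPM in high fat libraries and 220.2 to 460.1 CPM in control libraries, and control M was its lowest and control J its highest control library, as for Bhmt. Gsta2 had 55.1 to 86.7 CPM in high fat libraries and 152.7 to 298.2 CPM in control libraries, with the same lowest and highest control library. Slc22a29 was also lowest in control M but highest in control L (6.60 CPM, against 5.37 CPM in J), and Scd1 was highest in control M (89.0 CPM) and lowest in control L (76.6 CPM). These genes were selected for likeness to Bhmt, so their shared fall is part of the selection. Cyp2a5, Gsta2 and Slc22a29 belong to multigene families, so their counts can include reads shared with relatives.

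Outside the 10 genes, 116 other genes of the pathway were matched in the table and 107 were tested, of which 18 fell, 5 rose and 84 did not pass. Their median log2 fold change was -0.01. Over all tested genes, 5.13% were called lower and 4.86% higher on the high fat diet. These shares stand beside the counts above and those of each list below. The lists were written with earlier results of these data known, so nothing is read from the counts of calls. Each call is from edgeR with adjustment over all tested genes. Of the 23 called genes, 7 were called without each library in turn (Gnmt, Inmt, Aldh1l1, Gcsh, Gcat, Suox and Csad). The other 16 lost the call without 1 to 7 of the 8 libraries, with a highest adjusted p of 0.0512 to 0.128, and the count of falls was 5 without high fat F and 20 without control M.

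Of the 8 tested methyltransferases that use S-adenosylmethionine, 1 fell and 1 rose. Gnmt, glycine N-methyltransferase, which makes sarcosine from glycine, had 17.2, 16.9, 14.3 and 16.1 CPM in high fat libraries A, B, F and G, against 23.7, 25.1, 24.2 and 23.1 CPM in control libraries I, J, L and M. The diets did not overlap, and Gnmt fell by 0.58 ± 0.07 (SE) on the log2 scale (edgeR adjusted p = 0.00194). Inmt, an indole and amine N-methyltransferase, averaged 1001 ± 57.7 CPM on the high fat diet and 781.6 ± 64.6 CPM on the control diet (SD, n = 4 each) and rose by 0.36 ± 0.07 (edgeR adjusted p = 0.0126).

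Folate carries the methyl groups that Dmgdh and Sardh release. Of 23 tested folate genes, 6 fell and none rose. Aldh1l1, which oxidizes formyl-tetrahydrofolate, averaged 631.9 ± 15.7 CPM on the high fat diet and 772.7 ± 18.3 CPM on the control diet (SD, n = 4 each) and fell by 0.29 ± 0.05 on the log2 scale (edgeR adjusted p = 0.00691). Gart and Ftcd, enzymes of purine synthesis and histidine breakdown that use folate, fell by 0.20 and 0.55 (log2). The folate receptor gene Folr1, which overlaps Anapc15 on the other strand over 7074 bases, fell by 0.28 (log2). Mthfd2 and Mthfd1 were the other 2 that fell. The count of called folate genes rested on single libraries: it was 1 without high fat A, F or G or control L, 2 without control J, 3 without high fat B or control I, and 5 without control M.

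Glycine is the end of the betaine route, and 4 of 15 tested genes of glycine, sarcosine and serine fell while none rose. The median log2 fold change of that list was -0.05. Gcat, which splits aminoketobutyrate to glycine, averaged 54.8 ± 4.84 CPM on the high fat diet and 75.8 ± 8.91 CPM on the control diet (SD, n = 4 each) and fell by 0.46 ± 0.09 on the log2 scale (edgeR adjusted p = 0.0109). Gcsh and Amt, subunits of the glycine cleavage system, fell by 0.34 and 0.22 (log2), and Psph of serine synthesis fell by 0.39. Neither Amt nor Psph was called without high fat B, F or G or control I, J or L. The list had 2 calls without high fat G or control I, J or L and 7 without control M. Pipox, a peroxisomal sarcosine oxidase, and Agxt2, an aminotransferase, had log2 fold changes of -0.01 and 0.01 and did not pass.

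Downstream of Cth, 2 of 11 tested genes of cysteine, sulfide and glutathione fell and 2 rose. Suox, sulfite oxidase, averaged 116.8 ± 6.35 CPM on the high fat diet and 88.6 ± 5.58 CPM on the control diet (SD, n = 4 each) and rose by 0.40 ± 0.06 on the log2 scale (edgeR adjusted p = 0.00434). Csad, which leads cysteine sulfinate to taurine and overlaps Zfp740 on the other strand, rose by 0.46 ± 0.09 (edgeR adjusted p = 0.0104), at 297.6 ± 30.3 CPM on the high fat diet and 215.7 ± 20.8 CPM on the control diet. Gclm, the modifier subunit of the enzyme that begins glutathione synthesis, and Cdo1, cysteine dioxygenase, each fell by 0.24 on the log2 scale. Gclm was not called without high fat A, B or G or control I, L or M. Cdo1 was not called without high fat A, F or G or control I, J or L. The list had 2 calls without high fat A or G or control I or L.

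In the methionine cycle and salvage list, 2 of 12 tested genes fell and none rose, with a median log2 fold change of 0.03. Adk, adenosine kinase, fell by 0.24 and Apip, a methionine salvage enzyme, fell by 0.36 on the log2 scale. Neither was called without high fat F or G or control I, J or L, and Apip was also not called without high fat A or B. The list had 1 call without high fat A. Ahcy, which splits S-adenosylhomocysteine, had a log2 fold change of -0.17 ± 0.08 (SE) and Mtrr, the reductase that reactivates Mtr, one of -0.24 ± 0.08 (SE), and neither passed. Amd1, S-adenosylmethionine decarboxylase, had a log2 fold change of 1.28 with an SE of 1.04 and did not pass. In the authors' deposited table by Ensembl gene, made from these same libraries, Amd1 is lower on the high fat diet, with a fold of 0.605. The 2 sources thus give Amd1 opposite signs, and the sign of 1.28 is not relied on. Amd1 and the related gene Amd2 are set side by side after their values were seen, and whether reads were divided between them was not tested. Summed over Amd1 and Amd2, the level was 65.7, 68.3, 67.1 and 62.1 CPM in high fat libraries A, B, F and G, against 105.7, 115.0, 123.5 and 95.6 CPM in control libraries I, J, L and M. The summed levels did not overlap between the diets, whereas Amd1 alone was at 0 in high fat A and in controls J and L.

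Of 11 tested genes of cobalamin uptake and handling, 2 fell and none rose, with a median log2 fold change of -0.05. Cubn, which encodes the receptor for intrinsic factor bound to cobalamin, fell by 0.26 ± 0.06 on the log2 scale (edgeR adjusted p = 0.0182). That call was lost without high fat F (edgeR adjusted p = 0.0512), and a part of Cubn in renal cobalamin uptake was not tested. Mmab, which makes adenosylcobalamin, fell by 0.47. The cobalamin list had 0 calls without high fat F and 1 without high fat A or B or control J or L. Of 16 tested genes of choline uptake, phosphatidylcholine turnover and betaine supply, Slc22a2, an organic cation transporter, rose by 0.41 on the log2 scale (not called without high fat A, F or G or control I or L) and the others did not pass, among them Aldh9a1, another betaine aldehyde dehydrogenase (0.16 ± 0.08), and Pemt (0.07 ± 0.21), which makes phosphatidylcholine by methylation. Agphd1, which the current annotation calls Hykk and which acts in lysine breakdown, rose by 0.33 as 1 of 6 tested genes of the list that Aldh7a1 belongs to by function, a call found in the leave-one-out fits only without high fat B or control M. Of 5 tested osmolyte genes, Slc5a3, the myo-inositol transporter, fell by 0.65, and it overlaps Mrps6 over 29152 bases on the same strand, which fell by 0.47. Slc5a3 was not called without high fat A, B, F or G or control J. The osmolyte list had 0 calls without high fat B, F or G or control J and 2 without control M. The betaine transporter gene Slc6a12 was at no more than 0.226 CPM in high fat libraries and 0.176 CPM in control libraries and was below the filter.

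**Figure D5:**
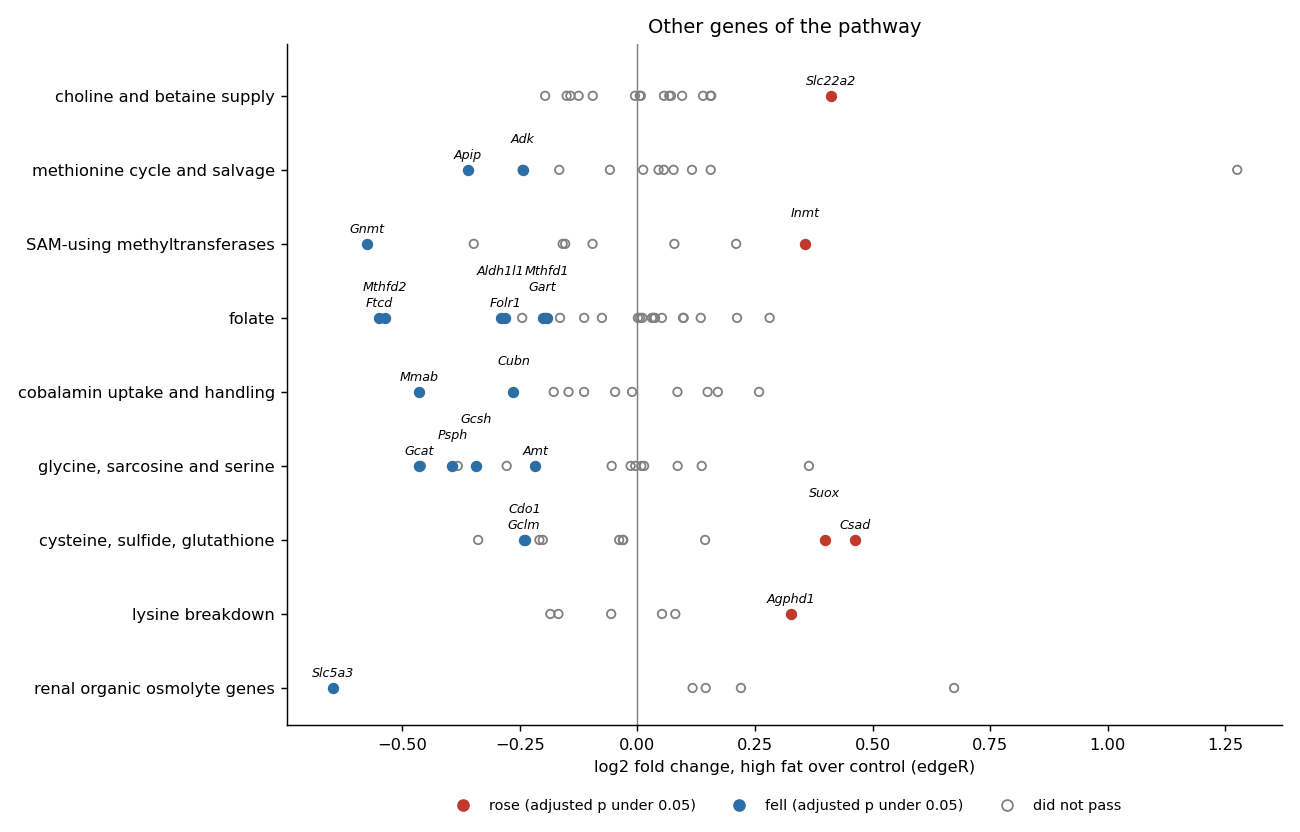
Log2 fold change, high fat over control, of the 107 other tested genes of the pathway, by list (filled and named where called, open where not). Called genes of the folate and the glycine lists lie left of 0, and the open point at 1.28 is Amd1, with an SE of 1.04. The authors' deposited table by Ensembl gene gives Amd1 the opposite sign, with a fold of 0.605.

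Summed markers of 3 cell types did not overlap between the diets, none of the 15 marker lists passed after adjustment, and their part in the results was not tested. The 5 markers of the thick ascending limb summed to 4314 to 5250 CPM in high fat libraries and 5307 to 5995 CPM in control libraries, and 3 of them fell. The 4 intercalated cell markers summed to 164.0 to 191.4 CPM in high fat libraries and 197.1 to 226.8 CPM in control libraries, with none called. The proximal tubule sums given above did not overlap either, and 3 of those 10 markers rose. Each of these 3 lists had p = 0.0286 (exact two-sided permutation test, the smallest that 70 splits can give) and an adjusted p of 0.143 over 15 lists. Of 4 principal cell markers 2 fell, and of 6 markers of the S3 segment of the proximal tubule 2 fell and 2 rose, with sums that overlapped between the diets in both lists. Sums of fat markers reached 0.932 CPM in high fat libraries and 1.45 CPM in control libraries. The 5 red cell markers summed to 2299.6 CPM in high fat G and 412.8 to 563.2 CPM in the other high fat libraries, against 373.0 to 871.1 CPM in control libraries, with the highest control in J. With neither high fat G nor control J, the log2 fold change was -1.87 for Bhmt, -0.35 for Cth and 0.23 for Chdh, and of these Bhmt alone was called.

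The authors' deposited tables of genes listed as differing between the diets, one of 1133 gene symbols and one of 1175 Ensembl genes, hold 4 of the 10 genes, and they were made from these same libraries. In the authors' deposited table by symbol, the fold of high fat over control was 0.243 for Bhmt, 0.774 for Cth, 1.18 for Chdh and 0.871 for Dmgdh. In the authors' deposited table by Ensembl gene the fold of Bhmt was 0.260. Dmgdh is listed there and was not called here.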

How the data were processed

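Outer renal cortex RNA of 8 libraries, 4 per diet, was sequenced after removal of ribosomal RNA from 1 ug of total RNA, per the labels' protocols. CASAVA 1.8.2, RSEM 1.2.9 and the mm10 build are named in the submitters' processing notes. Expected counts from RSEM were deposited by the authors for each gene symbol. They need not be whole and share ambiguous reads by likelihood. The authors deposited FPKM values for the same symbols, and their totals include Rn45s. The authors also deposited 2 tables of listed genes with a fold, the ratio of high fat to control, and a score, the posterior probability that expression is equal. The tool behind them, and whether counting used strand, are not given by the labels or files used.

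The genes and lists were chosen with earlier results of these data known. Expected counts were rounded, Rn45s was left out, and genes kept by filterByExpr were tested in R 4.3.3 by the quasi-likelihood F test of edgeR 4.0.16, with TMM factors and diet as the sole term. Calls were made at an adjusted p (Benjamini-Hochberg) under 0.05. CPM values are TMM-scaled, and each SE is the size of the log2 fold change over the root of F. TPM values are the deposited FPKM rescaled to 1 total per library without Rn45s. Library letters differ between the diets, so samples were not paired. Depth is given as total counts per library, and a gene near 1 CPM rests on few counts.

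Genes were named by rule: all 10 genes of the set, in each list up to 4 called genes, by smallest p, 10 further genes fixed by name, the 5 genes nearest to Bhmt, and its neighbours. Mthfd2 and Mthfd1 were named beyond that rule to complete a count, and Amd1, Amd2 and Mrps6 after their values were seen. The result of 1 gene that the rule names is not reported here. Alternatives were Rn45s kept, median-of-ratios factors, DESeq2 1.42.0, limma-voom (limma 3.58.1), no filter, a mean of at least 5 CPM, limma on log2(FPKM + 0.1) and log2(FPKM + 1) for genes with a mean FPKM of at least 0.5, and each library left out. Added after the data were seen were rescaled FPKM and a fit with neither control J nor high fat G. Coordinates are GENCODE M21 (GRCm38), and the coordinates in the deposited Ensembl table were not used.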

Additional observations from a re-analysis of the deposited data

Results flagged for a closer look

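In 6 of 80 groups of 4 libraries examined (the 10 genes and 30 other named genes of the pathway, on each diet), 1 library stood apart from the other 3 by Dixon's test at the 95% level, which chance gives in about 1 of 20 groups. Bhmt was 2.611 CPM in high fat B, against 1.643 to 1.76 CPM in the other high fat libraries. Mat2a was 489.5 CPM in control L, against 410.5 to 418.0 CPM in the other control libraries. Pemt was 0.7311 CPM in high fat G, against 0.9931 to 1.027 CPM in the other high fat libraries. Among control libraries, Mtrr was 14.49 CPM in library M, against 15.88 to 16.02 CPM in the others, and Inmt was 877.7 CPM in library M, against 741.3 to 760.9 CPM in the others. Amt was 72.46 CPM in control I, against 66.99 to 67.28 CPM in the other control libraries.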

How the results depend on the processing

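The log2 fold change of Bhmt lay between -2.21 and -1.18 over the fits that held it (-1.18 on log2(FPKM + 1)), and Bhmt was below the filter of a mean of at least 5 CPM. The genes of the set were chosen with this contrast known, so their calls in refits of the same libraries are no support. The count of called genes over the whole table was 1469, and 739 to 1528 when each library was left out (lowest without high fat F, highest without control M). It was 91 with limma on log2(FPKM + 0.1), 98 on log2(FPKM + 1), 820 on rescaled FPKM and 417 with neither control J nor high fat G. By construction, the deposited FPKM totals count Rn45s, which lowers every FPKM value of control J. Of the 10 genes, 2 were called lower, 2 to 3 with each library left out, 1 with each deposited FPKM fit and 1 with neither J nor G, while 1 was called higher, 0 to 1 with each library left out, and 0 with both deposited FPKM fits, rescaled FPKM and neither J nor G. Of the other pathway genes, 18 fell, 5 to 20 with each library left out (5 without high fat F, 20 without control M), 0 with either deposited FPKM fit, 9 with rescaled FPKM and 3 with neither J nor G. The 5 that rose were 3 to 8 with each library left out, 10 with DESeq2, 1 with either deposited FPKM fit, 3 with rescaled FPKM and 3 with neither J nor G. On log2(FPKM + 0.1) and log2(FPKM + 1), log2 fold changes of uncalled genes took the other sign: Bhmt2 0.07382 and 0.06964, Aldh7a1 0.06828 and 0.06716, Mat2a 0.03908 and 0.03804, Mtr 0.1229 and 0.1016, and Cbs 0.02694 and 0.02525. With each library left out, Mtr lay between -0.06201 (without control L) and 0.003967 (without high fat G), and it was 0.002741 with neither J nor G. The causes of the other shifts were not tested. No paired analysis was possible because the library letters differ between the diets. Depth limits Bhmt most, at 39 to 56 expected counts per high fat library.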
